A study of Mus musculus with 12 samples.

Results

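The matrix metalloproteinases (MMPs), the ADAM and ADAMTS metalloproteases, the ADAMTS-like proteins and the tissue inhibitors of metalloproteinases (TIMPs) were followed in RNA sequencing of mouse left ventricle. Genes were taken by symbol: Mmp, Timp, Adam, Adamts or Adamtsl followed by digits, with or without a final letter, and with 10 or more counts in at least 3 of 12 libraries. Of 49492 rows of the count table, 84 bore such a symbol and 48 met the count rule. All 48 also passed the filter on low counts and were tested.

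The study compared 4 groups of 3 libraries. Alox5ko_TAC were Alox5 knockout ventricles after TAC, Alox5ko_NS were Alox5 knockout ventricles of the NS group, WT_TAC were wild-type ventricles after TAC, and WT_NS were wild-type ventricles of the NS group. TAC stands for transverse aortic constriction, surgery that narrows the aorta so that the left ventricle pumps against a higher pressure. The labels leave NS unexplained, and it serves here as the name of the groups without TAC. Alox5 encodes arachidonate 5-lipoxygenase, the first enzyme of leukotriene synthesis, and the series title links it to Runx2 and ventricular remodeling. The series text describes the deficiency as cardiac, but the promoter or Cre behind it, the strain, the age of the mice and the time after surgery are not given in the sources used here. The labels do not state that each library came from a different mouse, so the p-values reflect variation between samples that may be technical replicates.

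Each library held 20889431 to 27311196 counts. Alox5 itself had 23 to 32 counts in Alox5ko_TAC, 21 to 39 in Alox5ko_NS, 223 to 285 in WT_TAC and 244 to 309 in WT_NS. CPM are counts relative to the TMM-adjusted library size for single genes, and relative to the library total alone for summed markers. All 8 cardiomyocyte markers were abundant, with a summed level of 141280 to 177787 CPM per library. The neutrophil genes Elane and Ly6g were at 0 in all 12. On the summed level of 8 activated fibroblast markers a library stood apart in each TAC group. WT_TAC library 1 had 336 CPM against 146 and 169 in the others of its group, and Alox5ko_TAC library 2 had 91.9 CPM against 181 and 211. The labels do not account for either library, and the calls below are also given without both.

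MMPs and ADAMTS enzymes are zinc-dependent proteases that cut collagens, proteoglycans and other matrix proteins, most of them made as inactive precursors that need cleavage before they work. ADAM proteins sit in the cell membrane, where the active ones release the outer parts of growth factors, cytokines and receptors. TIMPs block these proteases by binding their active sites, and the ADAMTS-like proteins lack a protease domain and bind matrix fibers instead. In the pressure-loaded heart the families are known for turning over the interstitial collagen network and for freeing growth factors that act on myocytes and fibroblasts.

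Among the 84 symbols the families were represented unevenly. All 4 Timp genes met the rule, as did all 5 ADAMTS-like genes, 15 of 19 ADAMTS genes, 6 of 7 membrane-anchored MMPs, 13 of 33 ADAM genes and 5 of 16 secreted MMPs. The other 36 symbols did not meet it, and 17 of them had no count in any library. Adam8 (3 libraries with 10 or more counts), Adam1b (5), Adamts19 (6) and Mmp16 (7) lay just inside the rule, and Adamts20 (2), Adam32, Mmp12 and Mmp13 (1 each) just outside it. The MMP cluster on chromosome 9, with 10 genes between 7272514 and 7699585 (mm10), contributed only Mmp3, the gene of stromelysin. Mmp9, which encodes gelatinase B, had 0 to 8 counts per library, and Mmp8, the neutrophil collagenase, likewise had 0 to 8.

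Levels were compared between genes in RPKM, the authors' length- and depth-scaled counts. Averaged over 12 libraries, Adamts1, a protease of versican and aggrecan, and Mmp15, a membrane-type MMP, were each at 14.5 RPKM, with ranges of 6.74 to 22.7 and 12.4 to 16.8 RPKM that overlap. Timp3, the matrix-bound inhibitor that also blocks ADAM17, followed at 13.9 RPKM, and its range of 10.2 to 17.9 RPKM overlapped both. Next came Adam9, a membrane sheddase, at 11.5, Adamtsl5 at 9.84, Timp2 at 9.69 and Mmp2 (gelatinase A) at 9.44 RPKM. The sheddases Adam10 and Adam17 averaged 4.15 and 3.48 RPKM. Timp4, known as the TIMP most restricted to the heart, averaged 2.96 RPKM and Timp1 1.86 RPKM. The lowest was Adam23, a protein without protease activity, at 0.0723 RPKM.

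The spread within groups also differed between genes. Averaged over the 4 groups, the coefficient of variation of CPM was smallest for Adam9 (4.54%), Adam10 (5.21%), Mmp15 (5.82%) and Adam17 (6.28%). It was largest for Adamts19 (51.9%) and Timp1 (48.8%), and both are low in counts. Adam15 and Adam19 had 8.17% and 9.59%, and Timp1 rests on 11 to 78 counts per library.

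**Figure D1:**
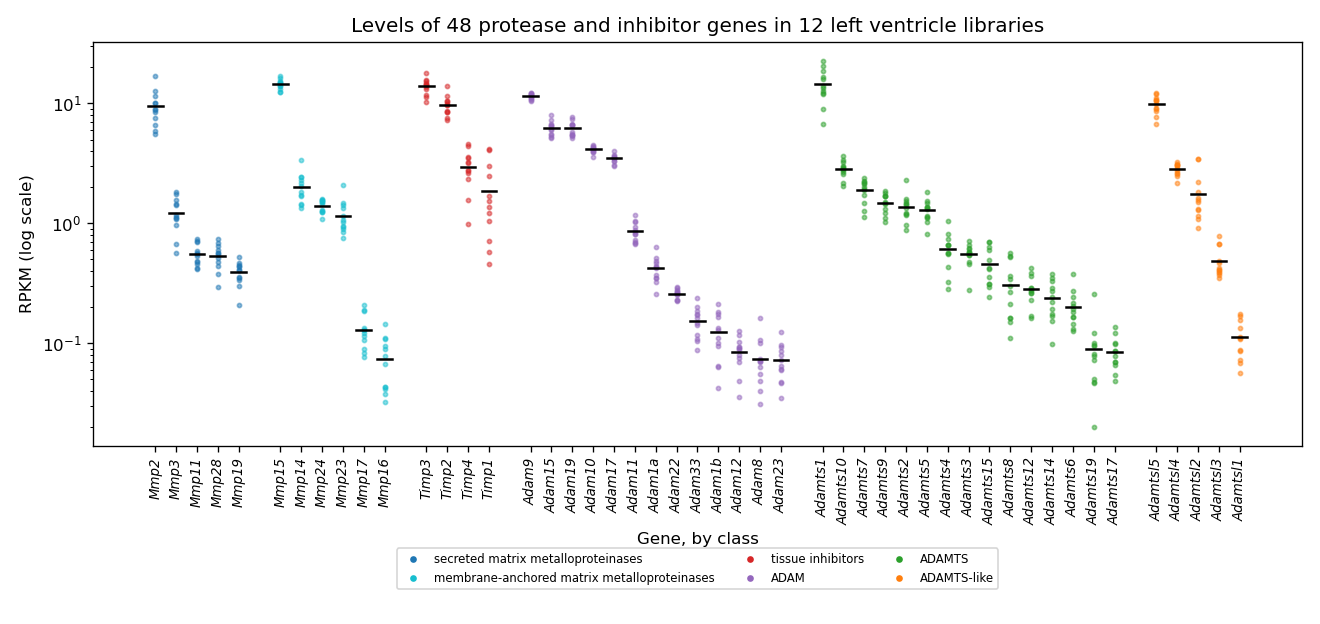
RPKM of each of the 48 genes (log scale), ordered and coloured by class, with 1 point per library. Adamts1 spans 6.74 to 22.7 RPKM, Adam9 lies within 10.5 to 12.2 RPKM, and Timp1 within 0.454 to 4.2 RPKM.

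TAC was tested in each genotype and as the average over both genotypes, which gives Alox5ko and WT equal weight. On that average 4 of the 48 genes rose with TAC and none fell: Timp1, Adamts8, Adamtsl5 and Mmp23. They belong to different families, an inhibitor, a secreted protease, a protease-free matrix protein and a membrane-anchored MMP. These 4 are 8.33% of the 48, while 5.08% of all 15542 genes tested were called and 2.89% were called higher. At an unadjusted p under 0.05 there were 20 of the 48 and 2996 of all genes. The count of 4 was 9 without WT_TAC 2, 7 with DESeq2 and 11 without the filter on low counts, where 706, 971 and 1331 of all genes were called instead of 790. The median log2 fold change was 0.06 over the 48 and 0 over all genes, and that of the 48 was 0 without WT_TAC 1 and -0.03 without both WT_TAC 1 and Alox5ko_TAC 2. A gene was called at a Benjamini-Hochberg adjusted p under 0.05 in the edgeR quasi-likelihood test, and all adjusted p-values are from that test unless another is named.

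Timp1, the inducible TIMP (chromosome X, 20870166 to 20874735, mm10), had the largest fold change of the 48 on the TAC average. Its level was 2.67, 0.913 and 3.68 CPM in Alox5ko_TAC and 0.523, 0.41 and 1.16 CPM in Alox5ko_NS. Among WT libraries it was 3.66, 1.5 and 2.21 CPM with TAC and 1.32, 1.17 and 0.628 CPM in WT_NS. The WT groups did not overlap, whereas Alox5ko_TAC library 2 lay within the range of Alox5ko_NS. Averaged over genotypes Timp1 rose by 1.53 on the log2 scale (SE 0.386, adjusted p = 0.0459), a fold of 2.89. Within Alox5ko the value was 1.83 (SE 0.558, adjusted p = 0.151) and within WT 1.23 (SE 0.532, adjusted p = 0.386). The averaged call was lost when any of 9 of the 12 libraries was left out, all but WT_TAC 2, Alox5ko_NS 3 and Alox5ko_TAC 2, with adjusted p up to 0.109 and log2 values of 1.32 to 1.8 over all alternatives. It held without both WT_TAC 1 and Alox5ko_TAC 2.

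Within the summed TIMP message Timp1 made up 10.7%, 3.3% and 12.6% of the RPKM in Alox5ko_TAC, against 2.09%, 1.94% and 4.31% in Alox5ko_NS. In WT_TAC it made up 10.9%, 7.54% and 9.76%, against 5.38%, 5.05% and 2.58% in WT_NS. These shares overlapped in Alox5ko, through Alox5ko_TAC library 2, and not in WT. Timp2, which inhibits MMPs and helps MMP14 activate the MMP2 precursor, had an averaged log2 value of 0.25 (adjusted p = 0.204). Timp3 had -0.01 (adjusted p = 0.992). Timp4 was at 18.8, 18.7 and 21.4 CPM in Alox5ko_TAC and 26.3, 16.7 and 28.8 CPM in Alox5ko_NS. In WT_TAC it was at 13.5, 5.83 and 9.34 CPM, below every WT_NS library (15.7, 15.1 and 20.4 CPM), with log2 values of -0.84 in WT (adjusted p = 0.276) and -0.56 on the average (adjusted p = 0.16).

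Adamts8 (chromosome 9, 30942562 to 30963838) encodes a secreted metalloprotease with thrombospondin repeats that is known to restrain blood vessel growth. It was at 2.5, 0.959 and 2.44 CPM in Alox5ko_TAC against 0.71, 0.522 and 0.8 CPM in Alox5ko_NS. WT_TAC libraries had 2.58, 1.59 and 1.69 CPM, against 0.727, 1.34 and 1.21 CPM in WT_NS. The TAC libraries lay above the NS libraries in both genotypes. Its exons overlap an annotated antisense gene, and no source used here says whether counting used strand, so its level is uncertain. It rose by 1.54 in Alox5ko (SE 0.355, adjusted p = 0.034), and its value in WT was 0.83 (SE 0.337, adjusted p = 0.312). The averaged rise was 1.19 (SE 0.245, adjusted p = 0.00819), a fold of 2.27. That averaged call held in all 17 alternatives, the 12 libraries left out in turn included, on 14 to 59 counts per library. The call within Alox5ko was lost with DESeq2, with only the 6 Alox5ko libraries, and without any of Alox5ko_NS 1, 2 and 3 and Alox5ko_TAC 1 and 3, with adjusted p up to 0.158.

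Adamtsl5, a secreted ADAMTS-like protein that associates with fibrillin microfibrils (chromosome 10, 80339110 to 80348412), showed the smallest p of the 48 on the TAC average. It was at 57.0, 52.0 and 49.7 CPM in Alox5ko_TAC, against 42.7, 37.2 and 33.8 CPM in Alox5ko_NS. Among WT_TAC libraries it was at 56.2, 50.1 and 50.2 CPM, against 39.6, 44.8 and 43.1 CPM in WT_NS. All 6 TAC libraries therefore lay above all 6 NS libraries. The rise was 0.48 in Alox5ko (SE 0.0934, adjusted p = 0.0156), the value in WT was 0.30 (SE 0.0934, adjusted p = 0.161), and the average was 0.39 (SE 0.066, adjusted p = 0.00217), a fold of 1.31. The averaged call held in all 17 alternatives. The call in Alox5ko was lost without Alox5ko_NS 2, Alox5ko_NS 3 or Alox5ko_TAC 1, with adjusted p up to 0.0825.

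Mmp23 encodes an MMP held in the membrane by an N-terminal anchor and shed when furin cuts it (chromosome 4, 155650655 to 155653384). It had 3.18, 3.29 and 2.72 CPM in Alox5ko_TAC and 2.24, 2.01 and 2.22 CPM in Alox5ko_NS. In WT_TAC it had 4.74, 3.43 and 2.39 CPM and in WT_NS 2.41, 2.12 and 1.75 CPM. The Alox5ko groups were separate, and WT_TAC library 3 lay just within the WT_NS range. Mmp23 rose by 0.63 on the average (SE 0.155, adjusted p = 0.0224), a fold of 1.55, with values of 0.51 in Alox5ko (adjusted p = 0.283) and 0.75 in WT (adjusted p = 0.131). The call was lost without WT_NS 3, WT_TAC 1 or Alox5ko_TAC 1, and without both WT_TAC 1 and Alox5ko_TAC 2, where the value was 0.47 and the adjusted p = 0.0918.

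The stretches before the start sites of 3 of these 4 genes are shown because the genes rose together under TAC; Adamts8 is named only. Each is the 250 bases before the RefSeq start (GRCm38.p6), printed 5' to 3' on the gene's strand: Adamtsl5 at chr10:80348449-80348698 (minus strand), Mmp23 at chr4:155653385-155653634 (minus strand) and Timp1 at chrX:20869916-20870165 (plus strand). Capitals mark matches to the RUNX motif TGTGGT or the SMAD motif CAGACA on either strand (ACCACA and TGTCTG). The AP-1 motif TGANTCA was searched as well.
Adamtsl5: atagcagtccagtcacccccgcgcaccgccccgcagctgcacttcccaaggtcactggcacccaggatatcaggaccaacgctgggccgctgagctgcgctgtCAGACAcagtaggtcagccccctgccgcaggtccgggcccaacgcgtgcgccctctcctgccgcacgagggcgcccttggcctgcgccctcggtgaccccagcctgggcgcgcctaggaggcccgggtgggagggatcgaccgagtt
Mmp23: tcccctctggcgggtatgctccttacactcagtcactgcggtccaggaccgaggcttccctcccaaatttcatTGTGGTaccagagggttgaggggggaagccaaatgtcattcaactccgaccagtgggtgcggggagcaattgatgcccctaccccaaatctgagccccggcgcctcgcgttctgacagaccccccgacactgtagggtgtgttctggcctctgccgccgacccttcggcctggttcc
Timp1: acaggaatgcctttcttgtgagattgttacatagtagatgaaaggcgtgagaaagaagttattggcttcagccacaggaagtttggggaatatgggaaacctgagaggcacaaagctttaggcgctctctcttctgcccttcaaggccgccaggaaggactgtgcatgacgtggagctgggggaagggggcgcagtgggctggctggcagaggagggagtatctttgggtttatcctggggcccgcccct
The SMAD match of Adamtsl5 begins 147 bases before the start site and the RUNX match of Mmp23 begins 177 bases before it. The letters of these 3 motifs do not occur in the Timp1 window. In 34 such windows of the 31 members matched by symbol, 5 (14.7%) held the RUNX letters, 2 (5.88%) the AP-1 letters and 1 (2.94%) the SMAD letters. Among all 32851 windows of the same length the shares were 14%, 6.75% and 17.1%. The RUNX share of these genes was thus near that of all genes, and a match in letters is not evidence of a bound site.

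**Figure D2:**
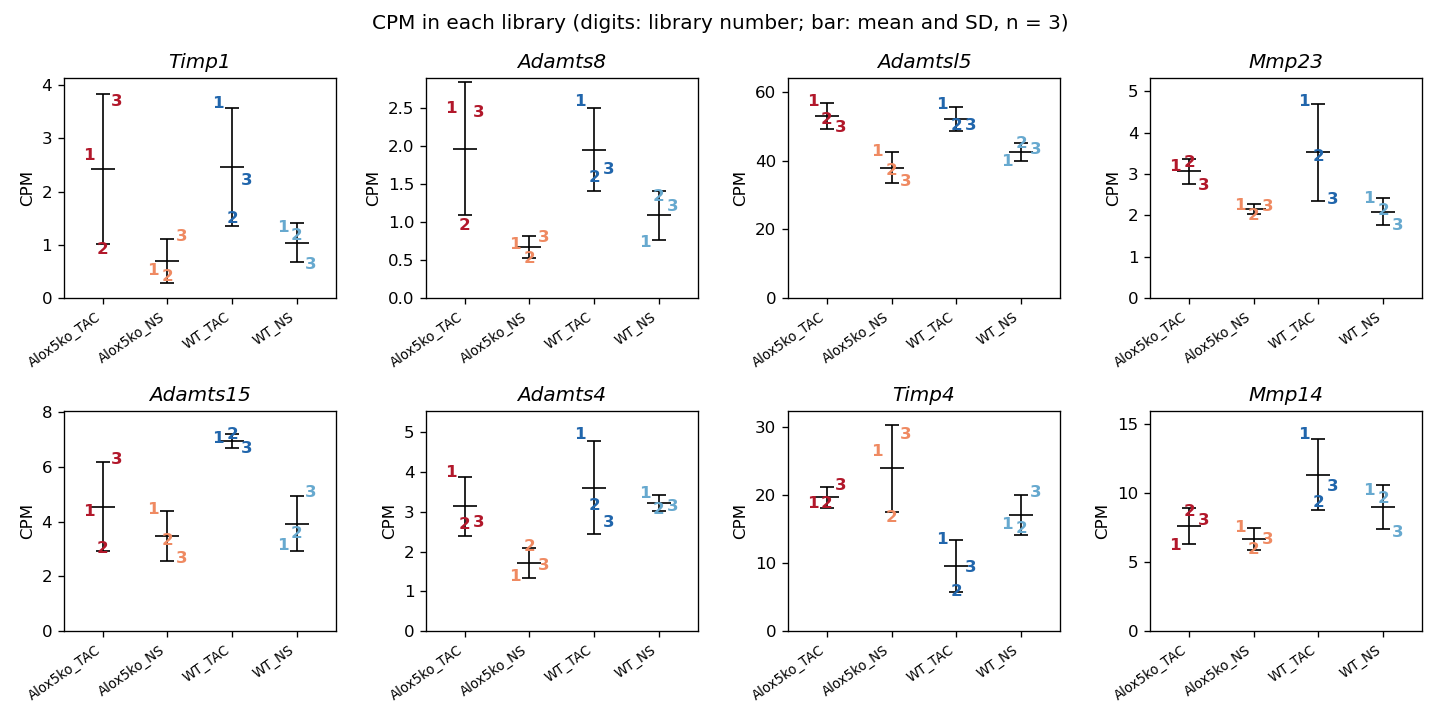
CPM of 8 genes in each library, with digits for the library number and a bar for the mean and SD (n = 3), groups ordered Alox5ko_TAC, Alox5ko_NS, WT_TAC and WT_NS. Adamtsl5 lies at 49.7 to 57.0 CPM in the 6 TAC libraries and 33.8 to 44.8 CPM in the 6 NS libraries, and Timp1 of Alox5ko_TAC library 2 (0.913 CPM) lies apart from the other 2 of its group.

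The remaining ADAMTS genes gave mixed values. Adamts15, a protease of versican that lies 20110 bases from Adamts8 and on the opposite strand, just missed the threshold on the TAC average with 0.60 (SE 0.169, adjusted p = 0.0503). It was at 4.37, 3.01 and 6.26 CPM in Alox5ko_TAC and 4.45, 3.32 and 2.67 CPM in Alox5ko_NS. In WT_TAC it was at 7.04, 7.16 and 6.67 CPM, all above the 3.13, 3.58 and 5.07 CPM of WT_NS, with a WT value of 0.82 (SE 0.234, adjusted p = 0.129). The averaged value passed the threshold in 6 of 17 alternatives, DESeq2 and the fit without both WT_TAC 1 and Alox5ko_TAC 2 (0.71, adjusted p = 0.0144) among them.

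Adamts4, an aggrecanase, was at 3.99, 2.69 and 2.72 CPM in Alox5ko_TAC, above the 1.38, 2.12 and 1.64 CPM of Alox5ko_NS. Levels in WT_TAC were 4.93, 3.17 and 2.72 CPM, overlapping the 3.45, 3.07 and 3.14 CPM of WT_NS. Its log2 values were 0.87 in Alox5ko (adjusted p = 0.0812), 0.16 in WT (adjusted p = 0.851) and 0.52 on the average (adjusted p = 0.0752). The same doubt about strand holds for Adamts4, Timp3, Timp4, Adam15, Adam17, Adam19 and the rest of 12 genes, Adamts8 included. Exons of these 12 overlap a gene on the other strand. Only the 40 genes with the same span in GENCODE M21 (mm10) were checked, which leaves out Mmp14 and Adamts5 among others.

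Adamts1 averaged 84.4 ± 16.1 CPM in Alox5ko_TAC and 52.9 ± 17.6 CPM in Alox5ko_NS, against 78.0 ± 24.3 CPM in WT_TAC and 90.2 ± 22.8 CPM in WT_NS (SD, n = 3 each). Its averaged TAC value was 0.23 (adjusted p = 0.641). Adamts2, the procollagen amino-propeptidase, averaged 13.4 ± 2.02 CPM in Alox5ko_TAC and 9.65 ± 1.26 CPM in Alox5ko_NS, against 15.2 ± 5.05 CPM in WT_TAC and 13.0 ± 0.879 CPM in WT_NS, with an averaged value of 0.35 (adjusted p = 0.173). Adamts5, another aggrecanase, had 0.07 (adjusted p = 0.877). Of the 15 ADAMTS genes 9 had a positive averaged value and 6 a negative one, and Adamts8 alone was called. Adamts14, a further procollagen propeptidase, had the lowest value of the 48 at -0.64 (adjusted p = 0.0984).

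All 5 ADAMTS-like genes had positive averaged TAC values, as had 50.2% of all genes tested. Their median was 0.43 and 1 was called. The lowest was Adamtsl4 with 0.1 (adjusted p = 0.568). Adamtsl2, a fibrillin-binding protein whose human gene is mutated in geleophysic dysplasia, was at 27.5, 14.2 and 17.8 CPM in Alox5ko_TAC and 10.6, 7.38 and 9.11 CPM in Alox5ko_NS. WT_TAC libraries had 26.8, 10.2 and 12.1 CPM and WT_NS libraries 12.2, 12.6 and 9.19 CPM. The Alox5ko groups were separate and the WT groups overlapped, and the averaged value was 0.83 (SE 0.281, adjusted p = 0.145). It was called with DESeq2 and without both WT_TAC 1 and Alox5ko_TAC 2 (0.65, adjusted p = 0.0199). Summed over the 5 genes, the RPKM was 18.8, 16.3 and 16.0 in Alox5ko_TAC, against 13.9, 12.2 and 10.4 in Alox5ko_NS. In WT_TAC the sum was 19.6, 15.6 and 16.0, against 13.3, 14.6 and 13.7 in WT_NS, so that every TAC library lay above every NS library of its genotype. Adamtsl5 makes up most of that sum.

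None of the 5 secreted MMPs was called on the TAC average by edgeR, 1 (Mmp2) had an unadjusted p under 0.05, and Mmp2 was called by DESeq2. Mmp2 was at 30, 25.3 and 39.5 CPM in Alox5ko_TAC, above the 22.7, 19.0 and 20.9 CPM of Alox5ko_NS. WT_TAC libraries had 56.1, 28.2 and 43.2 CPM, overlapping the 32.7, 32.7 and 30.1 CPM of WT_NS. Its averaged value was 0.51 (SE 0.161, adjusted p = 0.11), and it was also called without WT_TAC 2 and without both WT_TAC 1 and Alox5ko_TAC 2 (0.45, adjusted p = 0.0315). Of the membrane-anchored MMPs other than Mmp23, Mmp14, the membrane-type MMP that activates the MMP2 precursor, had 0.26 (adjusted p = 0.249).

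None of the 13 ADAM genes was called on the TAC average (edgeR, 4 at an unadjusted p under 0.05, none by DESeq2). There 10 had negative values and the median was -0.12, while 7742 of all 15542 genes had negative values. Adam19 was called without WT_TAC 2 and without the filter on low counts, and Adam11, which lacks protease activity, without Alox5ko_NS 3. Adam10, which releases Notch and cadherin ectodomains, was at 17.9, 19.8 and 20.8 CPM in Alox5ko_TAC and 19.7, 21.2 and 20.9 CPM in Alox5ko_NS, against 21.4, 20.3 and 21.5 CPM in WT_TAC and 18.9, 21.2 and 20.8 CPM in WT_NS, with a value of -0.01 (SE 0.0644, adjusted p = 0.941). Adam17, the tumor necrosis factor convertase, had -0.04 (SE 0.0652, adjusted p = 0.785). Adam15 had 0.19 (adjusted p = 0.149) and Adam19, a sheddase needed for mouse heart valve and septum development, had 0.25 (adjusted p = 0.0751). Adam12, which sheds heparin-binding EGF-like growth factor in mouse cardiac hypertrophy, had -0.17 (SE 0.251, adjusted p = 0.773) on 9 to 30 counts per library.

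Within Alox5ko alone, Adamtsl5 and Adamts8 were the 2 genes called, 4.17% of the 48, with 1.34% called among all genes and 0.733% called higher. DESeq2 called 3 there (Adamtsl5, Adamts4 and Mmp2) and 407 of all genes. Within WT alone edgeR called 0 of 48, with 0.766% called among all genes. There 10 of the 48 and 1845 of all genes had an unadjusted p under 0.05. DESeq2 and the fit without Alox5ko_TAC 2 each called 1 (Adamts15), with 285 and 180 of all genes. The TAC groups did not overlap for 16 of the 48 (33.3%) in Alox5ko, 12 of them higher, against 18% of all genes and 8.98% with TAC higher. In WT they did not overlap for 10 (20.8%), 6 of them higher, against 18.9% of all genes and 10.1% with TAC higher. In both genotypes and in the same direction this was so for Adamts8 and Adamtsl5, 4.17% of the 48, against 4.5% of all genes. The count of 2 in Alox5ko was 5 without WT_TAC 1, 8 without both WT_TAC 1 and Alox5ko_TAC 2, 1 without Alox5ko_NS 1 or Alox5ko_TAC 3, and 0 without Alox5ko_NS 2, Alox5ko_NS 3 or Alox5ko_TAC 1. Calls over all genes were 209, and 320 without WT_TAC 1, 537 without both, 68 and 64 without Alox5ko_NS 1 or Alox5ko_TAC 3, and 68, 91 and 61 where the count was 0.

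**Figure D3:**
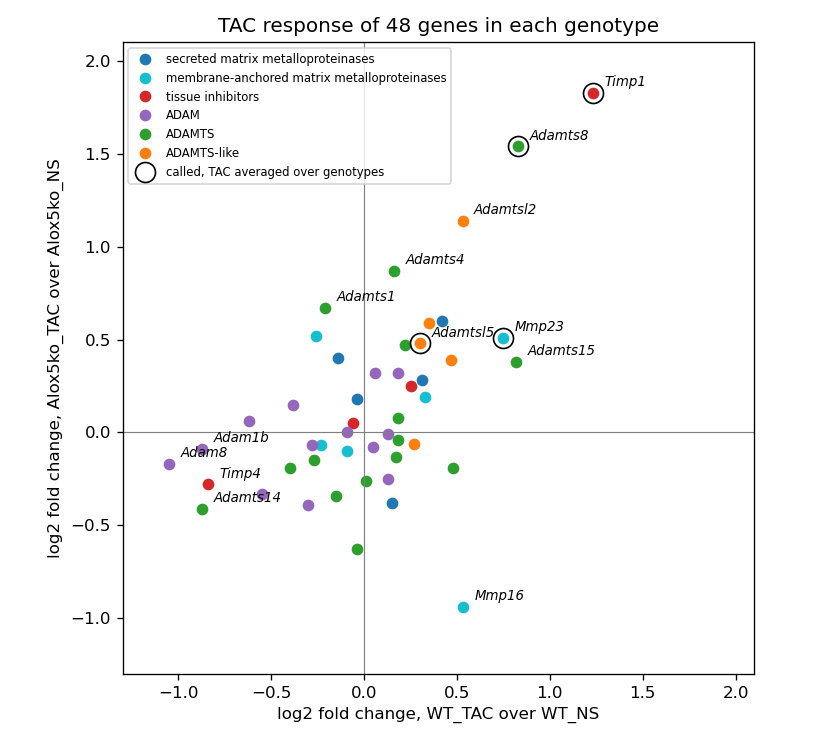
Log2 fold change of each of the 48 genes with TAC in Alox5ko (vertical axis) and in WT (horizontal axis), coloured by class, with rings on the 4 genes called on the average of both. Timp1 lies farthest up and right at 1.83 and 1.23, and Adamts8 follows at 1.54 and 0.83.

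A few markers of fibroblasts rose with TAC beside these genes. Summed over 8 activated fibroblast markers (among them Postn, the matricellular protein periostin), the level was 91.9 to 211 CPM in Alox5ko_TAC, against 72.1 to 94.5 CPM in Alox5ko_NS. It was 146 to 336 CPM in WT_TAC, against 133 to 165 CPM in WT_NS. On the TAC average 1 of the 7 tested was called higher and none lower, with a median of 1.03. Of 10 general fibroblast markers 2 were called higher and none lower, with sums of 879 to 1065 CPM in Alox5ko_TAC and 779 to 881 CPM in Alox5ko_NS, and of 891 to 1499 CPM in WT_TAC and 938 to 1128 CPM in WT_NS. Both sums overlapped between the TAC and NS groups of each genotype. Alox5ko_TAC library 2, lowest of its group in activated fibroblast markers, was also lowest of its group in Timp1, Adamts8 and Mmp2 but highest in Mmp23. In Adamtsl5 it lay between the others (52.0 CPM), and in Timp2 it was highest (44.6 CPM). It was also highest of its group in general fibroblast markers (1065 CPM against 879 and 1020.3). WT_TAC library 1, highest in both fibroblast sums, was also highest of its group in Timp1, Adamts8, Adamtsl5, Mmp23 and Mmp2.

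Macrophage markers, 10 in all, summed to 148 to 189 CPM in Alox5ko_TAC and 123 to 165 CPM in Alox5ko_NS, against 117 to 167 CPM in WT_TAC and 152 to 173 CPM in WT_NS, and none was called. Neutrophil markers summed to 1.17 to 6.94 CPM over the 12 libraries. Markers of atrial myocytes, 6 in all, included the stress-responsive Nppa. They summed to 292 to 1324 CPM in Alox5ko_TAC and 179 to 301 CPM in Alox5ko_NS. In WT_TAC they summed to 648 to 1337 CPM, against 189 to 367 CPM in WT_NS. On the TAC average 1 of 5 tested was called higher. The median log2 value of those tested was 1.49 in Alox5ko but -0.44 in WT. In whole tissue, more cells of a type and more RNA per cell cannot be told apart, and the part of these marker shifts in the TAC results was not tested.

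**Figure D4:**
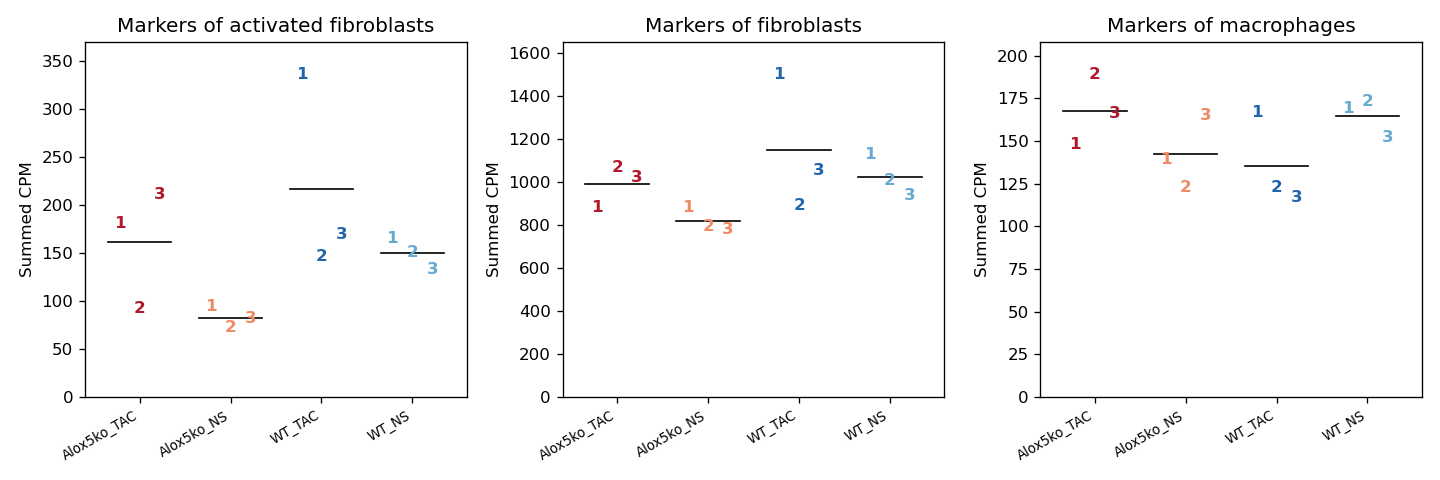
Summed CPM of markers of activated fibroblasts, fibroblasts and macrophages in each library (digits), with a line for the group mean. For activated fibroblasts WT_TAC library 1 stands at 336 CPM and Alox5ko_TAC library 2 at 91.9 CPM, each apart from its group.

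The genotype comparisons, Alox5ko over WT, called none of the 48 genes. Of the genes with the smallest p-values, Timp4 had positive values and Mmp14, Mmp17 and Adamts4 negative ones in both conditions, none past the threshold. With TAC, edgeR called 0 of 48 (0.109% of all genes), with 7 of the 48 and 1320 of all genes at an unadjusted p under 0.05 and 0 of the 48 by DESeq2. In NS it called 0 (0.0386% of all genes), with 9 of the 48 and 988 of all genes at an unadjusted p under 0.05 and 0 of the 48 by DESeq2. On the average of both it called 0 (0.154% of all genes), with 15 of the 48 and 1518 of all genes at an unadjusted p under 0.05. There DESeq2 called 3 (Mmp14, Mmp2 and Timp4) and 99 of all genes, and edgeR called 1 (Mmp2) and 44 of all genes without WT_TAC 2.

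Most of the 48 values lay below 0. With TAC 33 of 48 were negative with a median of -0.12, in NS 34 with a median of -0.17, and on the average 36 with a median of -0.13. The medians over all genes were -0.01, 0 and 0. Positive values made up 31.2%, 29.2% and 25% of the 48, against 48.6%, 50.4% and 48.9% of all genes. The TAC median of the 48 was -0.02 without WT_TAC 1 and -0.02 without both WT_TAC 1 and Alox5ko_TAC 2. The ADAMTS class had 13 of 15 negative averaged values and a median of -0.33. TAC groups did not overlap between genotypes for 8 of the 48 (16.7%; 1 higher and 7 lower in Alox5ko_TAC), against 12.3% of all genes and 6.51% with Alox5ko_TAC lower. NS groups did not overlap for 14 (29.2%; 1 higher and 13 lower in Alox5ko_NS), against 13.6% of all genes and 7.45% with Alox5ko_NS lower. No gene of the 48 was separate in both in the same direction, against 1.24% of all genes.

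Mmp14 was at 6.19, 8.63 and 8.03 CPM in Alox5ko_TAC, below each of the 14.2, 9.3 and 10.5 CPM of WT_TAC. In Alox5ko_NS it was at 7.47, 5.89 and 6.62 CPM, and in WT_NS at 10.2, 9.59 and 7.18 CPM, where the lowest WT_NS library lay below the highest Alox5ko_NS library. The log2 values were -0.57 with TAC (SE 0.171, adjusted p = 0.315), -0.43 in NS (SE 0.173, adjusted p = 0.703) and -0.50 on the average (SE 0.122, adjusted p = 0.129). Mmp2, whose precursor MMP14 activates, had -0.43 with TAC (adjusted p = 0.663), -0.61 in NS (adjusted p = 0.723) and -0.52 on the average (SE 0.161, adjusted p = 0.321). All 3 Alox5ko_NS libraries lay below all 3 WT_NS libraries for Mmp2, and the TAC groups overlapped.

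Timp4 showed the highest positive value. Alox5ko_TAC libraries (18.7 to 21.4 CPM) lay above WT_TAC libraries (5.83 to 13.5 CPM), with a log2 value of 1.05 (SE 0.293, adjusted p = 0.343). In NS the ranges of 16.7 to 28.8 CPM in Alox5ko_NS and 15.1 to 20.4 CPM in WT_NS overlapped, with 0.49 (SE 0.277, adjusted p = 0.824), and the averaged value was 0.77 (SE 0.201, adjusted p = 0.24). The gene lies on chromosome 6 (115241892 to 115252205), 1157872 bases from Alox5, and its exons overlap those of Syn2 on the other strand (413 counts in all).

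The ratio of summed Timp to summed Mmp RPKM put inhibitors beside proteases. It was 0.939, 1.11 and 1.02 in Alox5ko_TAC and 0.918, 0.728 and 0.726 in WT_TAC. In NS it was 0.995, 0.897 and 1.14 in Alox5ko_NS and 0.865, 0.789 and 0.845 in WT_NS. The Alox5ko libraries lay above the WT libraries in both conditions. This ratio was formed with the values known and was not tested, and it compares amounts of message, not of active protein.

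Adamts4 and Mmp17 had the smallest p-values of the 48 in NS. Adamts4 was at 1.38, 2.12 and 1.64 CPM in Alox5ko_NS, below the 3.45, 3.07 and 3.14 CPM of WT_NS, with -0.90 (SE 0.239, adjusted p = 0.435). Mmp17, an MMP tied to the membrane by a lipid anchor, was at 0.598, 0.522 and 0.578 CPM in Alox5ko_NS, below the 0.817, 1.34 and 1.21 CPM of WT_NS, with -0.98 (SE 0.313, adjusted p = 0.59). For Mmp17 these are 13 to 16 counts in Alox5ko_NS and 18 to 31 in WT_NS. Endothelial markers, 8 in all, summed to 371 to 502 CPM in Alox5ko_NS and 515 to 563 CPM in WT_NS. Those of smooth muscle and pericytes, 9 in all, summed to 790.1 to 1059 CPM in Alox5ko_NS and 1113 to 1199 CPM in WT_NS. Mast cell markers (2.02 to 2.49 CPM in Alox5ko_NS, 3.89 to 4.08 CPM in WT_NS) were separate. So were T and B cell markers (1.06 to 1.18 CPM in Alox5ko_NS, 1.43 to 1.78 CPM in WT_NS). TMM factors, left out of these sums, were 0.9455 to 0.9837 in Alox5ko_NS and 1.012 to 1.035 in WT_NS. Scaled by them, the endothelial sums would overlap, and the smooth muscle and pericyte sums would not be clearly separate. Alox5ko_NS library 3 was lowest of the 12 in endothelial, smooth muscle and cardiomyocyte markers (371, 790.1 and 141280 CPM), and without it the NS median of the 48 was -0.11. Markers of activated fibroblasts summed to 72.1 to 94.5 CPM in Alox5ko_NS and 133 to 165 CPM in WT_NS. General fibroblast markers, 10 in all, summed to 779 to 881 CPM in Alox5ko_NS and 938 to 1128 CPM in WT_NS. Both sums were separate, and the median log2 values of the tested markers were -0.59 and -0.08. None of the tested markers (1 each for mast cells and for T and B cells) was called in the genotype comparisons. Their part in the lower values of the proteases was not tested.

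**Figure D5:**
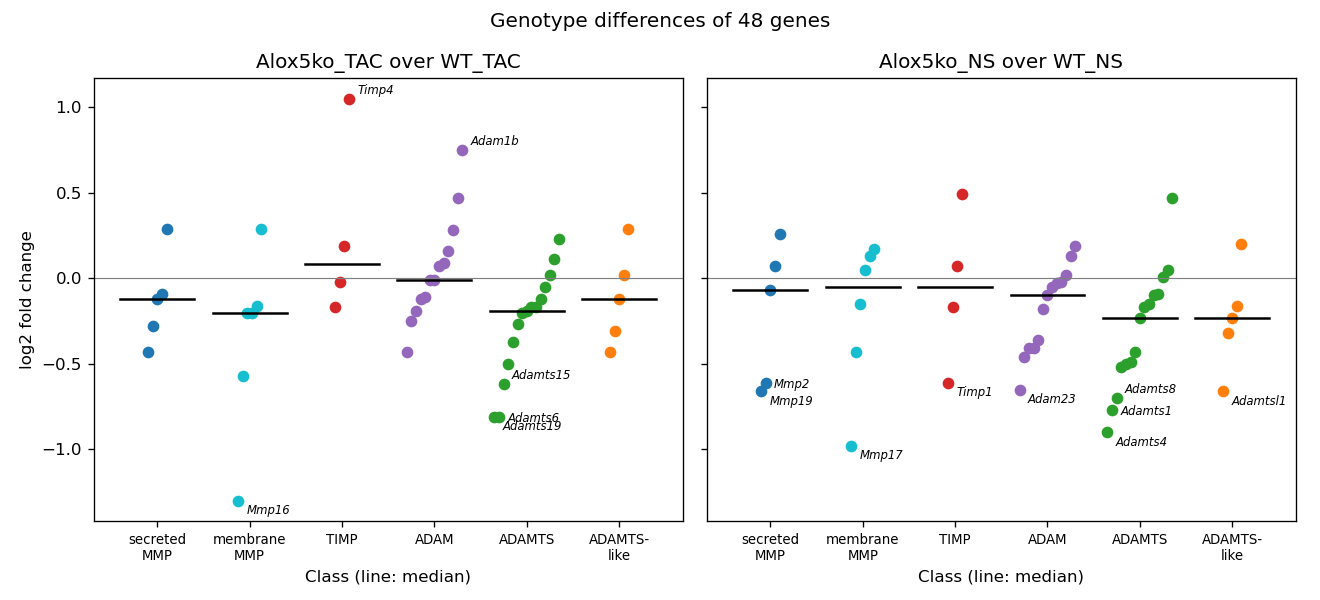
Log2 fold changes between genotypes with TAC (left) and in NS (right) for the 48 genes, by class, with a line for the class median. Most points lie below 0 (33 of 48 with TAC and 34 in NS), and Timp4 is highest at 1.05 with TAC. Mmp16 is lowest at -1.3 with TAC, on 9, 7 and 8 counts in Alox5ko_TAC, where it is under the count rule.

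Whether TAC acted differently in the 2 genotypes was tested by the interaction, the TAC effect in Alox5ko minus that in WT. Here edgeR called 0 of the 48 and 0 of all 15542 genes (0%), with 2 of the 48 and 835 of all genes at an unadjusted p under 0.05 and 0 of the 48 by DESeq2. The 2 were Mmp16 and Adamts4. Mmp16, a membrane-type MMP, was at 0.382, 0.32 and 0.382 CPM in Alox5ko_TAC and 0.784, 0.596 and 0.711 CPM in Alox5ko_NS. In WT_TAC it was at 0.938, 0.814 and 0.939 CPM, and in WT_NS at 0.272, 1.21 and 0.359 CPM. The interaction was -1.47 (SE 0.625, adjusted p = 0.882) on 6 to 28 counts per library. Mmp16 had 9, 7 and 8 counts in Alox5ko_TAC, so it met the rule of 10 counts only through the other groups. Its low level in Alox5ko_TAC is therefore not support for a difference. Adamts4 had 0.71 (SE 0.328, adjusted p = 0.905). For Adamts8 it was 0.71 (SE 0.493, adjusted p = 0.994), for Adamtsl5 0.18 (SE 0.132, adjusted p = 0.998) and for Timp1 0.59 (SE 0.784, adjusted p = 1), so that calls in 1 genotype only are not shown to differ between genotypes.

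Other genes of the protease pathways were read from 6 lists on the TAC average, where 5.08% of all genes were called. Of 13 tested proteoglycan and procollagen genes that ADAMTS enzymes act on, 2 rose and none fell. They were Bgn (biglycan) with 0.73 (SE 0.174, adjusted p = 0.0482) and Lum (lumican) with 0.62 (SE 0.162, adjusted p = 0.0486). All 13 values were positive, against 50.2% of all genes. Of 13 fibrillin microfibril partners of the ADAMTS-like proteins, 3 rose and none fell. These were the latent TGF-beta binding proteins Ltbp2 with 2.01 (SE 0.391, adjusted p = 0.024) and Ltbp3 with 0.35 (SE 0.0744, adjusted p = 0.00928), and Mfap5, a microfibril glycoprotein, with 1.1 (SE 0.262, adjusted p = 0.043). Of these 5 calls that of Ltbp3 held in all 17 alternatives. Leaving out 1 library ended the call of Bgn in 9 of 12 cases, Mfap5 in 9, Lum in 8 and Ltbp2 in 5, with adjusted p up to 0.122.

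Of 20 tested transmembrane proteins known to be shed, 1 rose and 1 fell. Hbegf, the ADAM substrate heparin-binding EGF-like growth factor, rose by 0.79 (SE 0.162, adjusted p = 0.0187), while Sdc4, the heparan sulfate proteoglycan syndecan-4, fell by 0.68 (SE 0.107, adjusted p = 0.00186). Of 17 activators and other matrix proteases, Pcolce2, an enhancer of procollagen processing, rose by 0.41 (SE 0.088, adjusted p = 0.0098), and the serine protease gene Htra1 fell by 0.32 (SE 0.071, adjusted p = 0.0118). Of 9 other inhibitors only Spock2, a testican, rose, by 0.47 (SE 0.113, adjusted p = 0.02). None of 7 regulators of ADAM10 and ADAM17 was called by edgeR, with 1 (Rhbdf1, an inactive rhomboid that escorts ADAM17, 0.25, adjusted p = 0.0826) at an unadjusted p under 0.05. The calls of Sdc4, Pcolce2 and Htra1 held in all 17 alternatives. That of Hbegf was lost without WT_NS 3 or Alox5ko_NS 2 and that of Spock2 without WT_NS 2, WT_TAC 3, Alox5ko_NS 1 or Alox5ko_TAC 3, with adjusted p up to 0.0647. In the 3 genotype comparisons no gene of these lists was called.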

How the data were processed

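Per the labels' protocols, TRIzol RNA was selected on oligo(dT) beads, made into directional libraries and read as 150-bp pairs. The submitters' processing notes name HISAT2, DESeq2 and the builds GRCh38 and mm10, without versions. The counting program, annotation release and strand setting are not given in the sources used here. The authors deposited raw counts per gene symbol and RPKM values; all 254619 RPKM values compared were recomputed from the counts within 0.1%. Positions are those of the count table, and 40 of the 48 genes have the same span in GENCODE M21 (mm10).

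The count model used edgeR 4.0.16 with limma 3.58.1 (R 4.3.3): filterByExpr on 4 groups (minimum count 10, total 15; 15542 genes), TMM scaling, 1 coefficient per group over all 12 libraries, robust quasi-likelihood F tests, and Benjamini-Hochberg adjustment over all genes tested. CPM of single genes uses TMM factors (0.945 to 1.035), and summed marker CPM uses library totals alone. The biological coefficient of variation was 0.107. Alternatives were DESeq2 1.42.0, other scaling, no filter, a replicate block, only the groups compared, and libraries left out. Exons of 12 of the 40 genes with the same span in GENCODE M21 overlap a gene on the other strand. Genes without the same span were not checked.

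The genes and lists were chosen with earlier results of these data known. Genes were named if called in any comparison, if among the 2 smallest p-values of a comparison, or for a textbook role in the heart. In all 21 qualified. Some with a textbook role are given only by log2 value or by group mean and SD, without library values. Genes named beyond the 21 were chosen after their values were seen.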

Additional observations from a re-analysis of the deposited data

How the results depend on the processing

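On the TAC average 4 of the 48 were called in the reported fit, 11 without a filter on low counts and 7 with DESeq2. With a library left out they numbered 3 to 9 (9 without WT_TAC 2). Over all genes the calls were 790, 1331 and 971 in those 3 fits, and 396 to 995 with a library left out. Within Alox5ko the count was 2, with 3 by DESeq2, 6 without the filter and 1 with only the groups compared. It was 8 without both WT_TAC 1 and Alox5ko_TAC 2 (an alternative chosen after seeing the data), and 0 to 5 with a library left out. Over all genes the calls were 209, 407, 756, 159 and 537 in these fits, and 61 to 380 with a library left out. Within WT the count of the 48 was 0, with 4 without the filter, 1 with DESeq2 and 1 with only the groups compared. It was 0 to 1 with a library left out (1 without Alox5ko_TAC 2). Over all genes the calls were 119, 538, 285 and 217 in these fits, and 17 to 180 with a library left out. For genotype the count of the 48 was 0 in each comparison. Under TAC it was 3 without the filter, and in NS 1 without the filter and 1 with only the groups compared. On the average it was 3 without the filter, 3 with DESeq2 and 0 to 1 with a library left out (1, Mmp2, without WT_TAC 2). Over all genes the calls went from 17 to 252 under TAC, and from 6 to 116 and 18 in NS. On the average they went from 24 to 348 without the filter, 99 with DESeq2 and 15 to 44 with a library left out. The median of the 48 in WT was 0.09, from -0.04 to 0.16 with a library left out and -0.04 without both, that with TAC between genotypes -0.12, from -0.16 to -0.02 and -0.02, and that of the interaction 0.13, from 0.03 to 0.25 and 0.26. Of the uncalled genes for which single alternatives were tabulated, 5 TAC averages changed sign with a library left out: Adam10 (-0.04 to 0.02), Timp3 (-0.14 to 0.07), Adamts5 (-0.11 to 0.19, and -0.1 without both libraries), Mmp16 (-0.38 to 0.28) and Mmp17 (-0.01 to 0.21). The causes were not tested. DESeq2 size factors in edgeR kept all counts of called genes among the 48.

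Same-numbered libraries of different groups deviated with correlations of -0.121 to 0.0916 (0 of 18 pairs over 0.1), so the numbers are not taken to pair the samples. With a replicate block, 6 genes were called on the TAC average (Adamtsl2 and Timp4 besides the 4), 2 within Alox5ko and 0 in the other comparisons. Over all genes that fit called 774 on the TAC average, 170 within Alox5ko and 110 within WT. Depth limits Timp1, Adamts8, Mmp16 and Mmp17, which had under 100 counts in every library.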
